A study of Mus musculus with 24 samples.

Results

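Translin (Tsn) and trax (Tsnax) encode the partner proteins of an RNA-binding and RNA-cutting complex. Both genes were followed here by their symbols through gene-level RNA sequencing of 24 mouse libraries. They are 2 of the 17501 genes measured in embryonic stem cells (mESC) and 2 of the 16024 measured in neural progenitor cells (NPC). Tsnax was chosen for its steep increase over the 4 knock-in lines of NPC, and Tsn because its protein binds trax. The NPC knock-in values of Tsnax are therefore described without a test, while its values in mESC, its knockout comparison and all values of Tsn were tested.

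For mESC and for NPC there were 2 libraries of each of 6 Htt genotypes. These were wild-type cells (WT), cells with Htt knocked out (KO), and knock-in lines whose mutated allele carries 20, 50, 92 or 111 CAG repeats (Q20, Q50, Q92 and Q111). The knock-in lines are heterozygous and keep a normal allele beside the altered one. The titles give the third length as 92 repeats and the growth protocol gives 89. The mESC were grown with LIF on irradiated mouse fibroblasts, and the NPC were derived from mESC in serum-free medium and expanded with FGF and EGF on laminin. Htt encodes huntingtin, whose expanded CAG repeat causes Huntington disease, and the study's title relates the repeat to splicing, while only levels of whole genes are used here. The series text calls the 2 libraries of a group biological samples, and nothing says whether they came from separate clones or differentiations. The p-values therefore speak for these libraries and lines only. Those of pairs rest on the spread within all 6 groups of a cell type. Those of slopes also hold the departure of lines from a straight line, and those of correlations come from permuting line means.

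Translin binds single-stranded RNA and DNA, and trax, which has no strong binding of its own, joins it in an octameric shell known as C3PO. Trax carries the catalytic residues of this shell, which cuts the passenger strand of a small interfering RNA while Argonaute 2 is loaded, trims transfer RNA ends in a fungus, and can degrade precursors of microRNAs. Trax protein is unstable in cells that lack translin. In the brain, translin has been linked to the dendritic transport of messenger RNAs such as that of Bdnf, and the human trax gene lies beside DISC1, with which it can be spliced into joint transcripts.

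The deposited values are normalised counts scaled to a common library size (CPM). An mESC library rested on 58546211 to 81502284 recovered reads and an NPC library on 48525333 to 118038952. Tsn rested on 5460 to 28854 reads and Tsnax on 1781 to 20642, so that counting alone gave a relative SD of at most 2.37%. Htt stood at 100 and 94.9 CPM in the KO libraries of NPC, below the 137 and 177 of WT. In mESC the library labelled KO 2 had 68.5 CPM of Htt, but the library labelled KO 1 had 139 CPM, above the 124 and 113 of WT, so directions drawn from KO in mESC carry that doubt. Summed pluripotency markers ranged from 1992 to 3772 CPM in mESC and from 4.72 to 108 CPM in NPC, and summed neural progenitor markers from 139 to 548 CPM in mESC and from 3943 to 9365 CPM in NPC; Sox2, which is in both lists, was not analysed here.

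Tsn (ENSMUSG00000026374) lies on the minus strand of chromosome 1, from 118294778 to 118311739 on GRCm38. Its coding transcript has 6 exons and encodes 228 residues, and no annotated gene overlaps it. Tsnax (ENSMUSG00000056820) lies on the plus strand of chromosome 8, from 125012997 to 125034192, with 6 exons and 290 residues. The processed pseudogene Gm45874 lies inside it on the opposite strand. The coding part of Tsnax has near-identical copies elsewhere, of which the pseudogene Gm8010 matched 96.2% of its bases and Gm5761 91.3%. Of the 2317 windows of 75 bases (the read length) in the longest Tsnax transcript, 90 (3.88%) occurred unchanged in Gm8010, and none of 6989 windows of Tsn occurred in a transcript of another gene. Neither the use of strand nor the treatment of reads that match several places is given in the sources used here, so Tsnax values may hold some reads of these pseudogenes.

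In NPC, Tsnax was lowest in Q20 and highest in Q111, and the knock-in lines followed the order of their repeat lengths. Its level was 22.7 and 20.3 CPM in the libraries of Q20, and 54.7 and 59.7 CPM in those of Q50. It was 132 and 128 CPM in Q92, and 178 and 187 CPM in Q111. No line overlapped another, and replicates differed at most 1.12-fold. On the scale of log2(CPM + 1), the mean of Q50 was 1.37 above that of Q20, Q92 was 2.55 above it and Q111 was 3.03 above it. The line fitted over the 91 repeats between Q20 and Q111 had a slope of 2.97 on the log2 scale. These are the values that chose the gene, and they are given as a description.

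**Figure D1:**
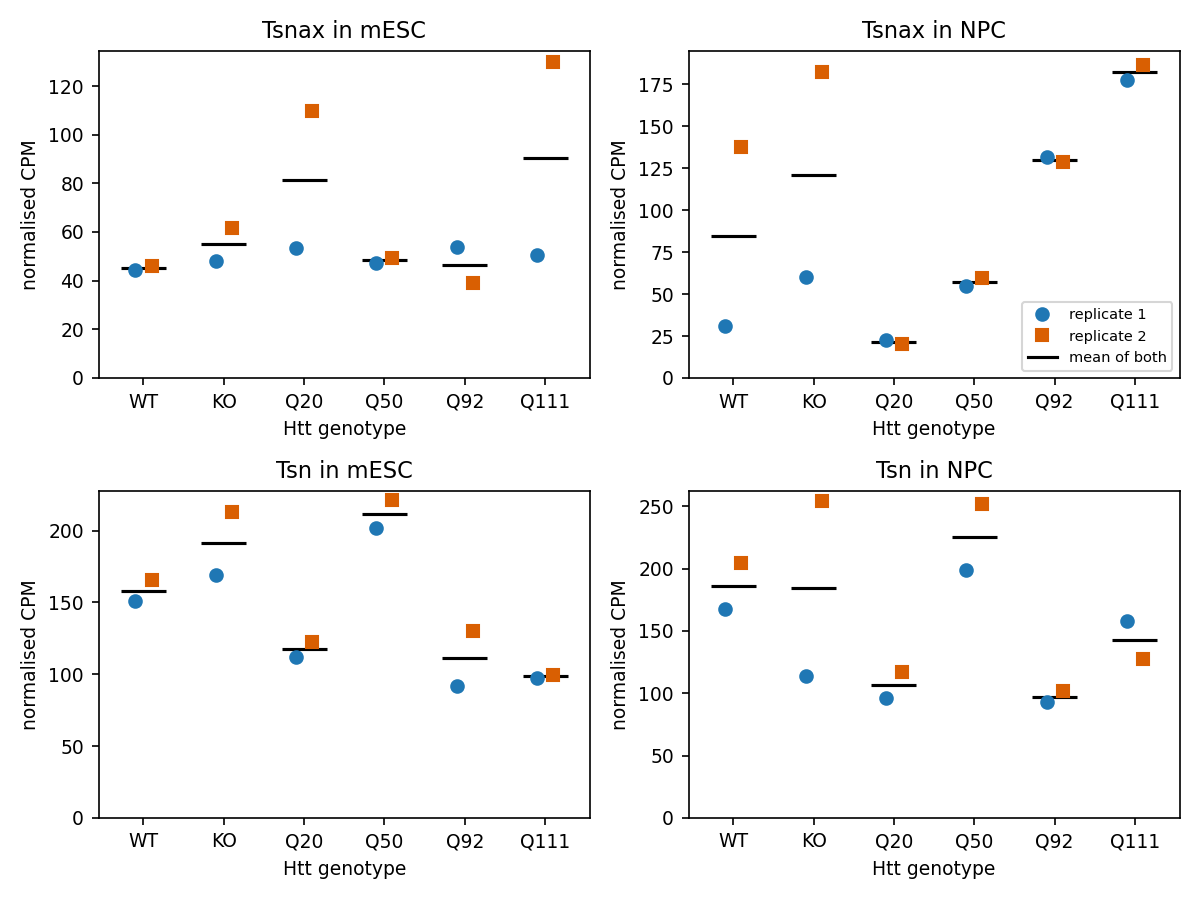
Normalised CPM of Tsnax (top) and Tsn (bottom) in every library of mESC (left) and NPC (right), by Htt genotype; circles are replicate 1, squares replicate 2 and bars the mean of both. Tsnax in NPC runs from 21.5 CPM in Q20 to 182 CPM in Q111, while WT and KO each span most of that range; Tsn is high in Q50 in both cell types.

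The WT and KO libraries of NPC did not give Tsnax such a settled level. Tsnax stood at 31.2 CPM in WT replicate 1 and at 138 CPM in WT replicate 2, a 4.41-fold gap. It stood at 60.1 and 182 CPM in the KO libraries, a 3.03-fold gap. Replicate 1 was the lower library of both genotypes. The lower WT library lay between the levels of Q20 and Q50, and the higher between those of Q92 and Q111. Of 10566 genes that averaged 5 CPM or more, 2.96% differed as much between the WT replicates and 3.63% between the KO replicates. By mean level the order was Q111, Q92, KO, WT, Q50 and Q20, in which the libraries of Q111 and Q92 and those of Q50 and Q20 did not overlap, while the other neighbours did. KO was 121 ± 86.3 CPM (SD, n = 2) against 84.4 ± 75.3 CPM (SD, n = 2) in WT. The log2 difference was 0.66 with a standard error of 0.66 and an adjusted p of 0.757 in limma, a comparison in which 1.42% of genes were called at an adjusted p under 0.05. It was -0.13 without KO replicate 2, -0.39 without WT replicate 1, 1.45 without KO replicate 1 and 1.72 without WT replicate 2. Its direction thus changed with the library left out. Within each replicate number KO was above WT, at 60.1 against 31.2 CPM in replicate 1 and 182 against 138 CPM in replicate 2.

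Markers of other cells differed between these NPC libraries as well. The summed level of 6 astrocyte markers was 2302 and 2031 CPM in Q20, 1461 and 1165 CPM in Q50, 346 and 350 CPM in Q92, and 284 and 274 CPM in Q111, the opposite order to Tsnax. It was 1974 and 1178 CPM in WT and 1374 and 912 CPM in KO, with the higher sum in the library that had less Tsnax. All 6 markers were above 1 CPM except Gfap in Q92, and WT replicate 2 and Q50 replicate 2 had nearly the same sum with 138 and 59.7 CPM of Tsnax. Fibroblast markers summed to 300.7 and 244 CPM in Q20 and to 866 and 888 CPM in Q50. They summed to 6.51 and 7.40 CPM in Q92, and to 2.56 and 2.51 CPM in Q111. In the mESC, which were grown on fibroblasts, the 7 of these 8 markers that were measured summed to 12.4 to 69.8 CPM. The source of the fibroblast markers in NPC was not tested. The part of these cells in the Tsnax levels was not tested, and in bulk RNA fewer cells of a type cannot be told apart from less RNA per cell.

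**Figure D2:**
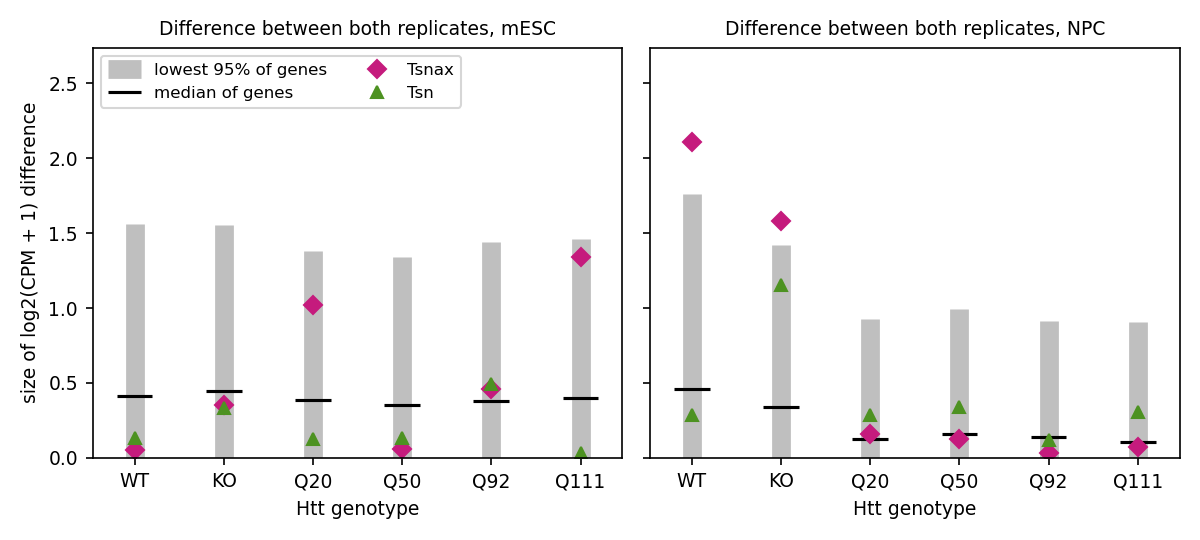
Size of the difference between both replicates on the log2(CPM + 1) scale, for Tsnax (diamonds) and Tsn (triangles) in each genotype; grey bars reach from 0 to the value below which 95% of genes averaging 5 CPM or more lie, and black lines mark their median. Tsnax lies above the grey bar in WT and KO of NPC, at 2.11 and 1.58, and at or below 0.16 in the 4 NPC knock-in lines.

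In mESC the order of the knock-in lines was not seen in Tsnax, and 2 libraries stood apart. Tsnax was at 44.4 and 46.2 CPM in WT, 48.1 and 61.6 CPM in the libraries labelled KO, and 47.3 and 49.3 CPM in Q50. It was at 53.8 and 38.9 CPM in Q92. In Q20 it was at 53.6 CPM in replicate 1 and 109.5 CPM in replicate 2, and in Q111 at 50.7 and 130.0 CPM. Apart from those replicate 2 libraries of Q20 and Q111, the mESC libraries lay between 38.9 and 61.6 CPM. Of 10443 genes, 11.5% differed as much between the Q20 replicates and 6.44% between the Q111 replicates. The order of the means was Q111, Q20, KO, Q50, Q92 and WT, and every pair of neighbours in it overlapped.

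None of the Tsnax comparisons in mESC passed the threshold in limma. The libraries labelled KO were 0.26 above WT on the log2 scale (standard error 0.45, adjusted p = 1.00; 0.0144% of genes called), and Q20 was 0.75 above WT (standard error 0.45, adjusted p = 0.57; 0.323% called). Against Q20, the log2 difference was -0.66 for Q50 (adjusted p = 0.953; 0.00719% called), -0.73 for Q92 (adjusted p = 1.00; 0.00719% called) and 0.08 for Q111 (adjusted p = 0.999). For Q111 against Q20, 0 genes were called by limma, 374 had an unadjusted p under 0.05, and edgeR called 0. The slope of Tsnax over 91 repeats was -0.03 on the log2 scale with a standard error of 0.51 (limma, adjusted p = 1.00), where 0 genes were called by limma or edgeR and 358 had an unadjusted limma p under 0.05. The slope was 0.52 without Q20 replicate 2 and -0.64 without Q111 replicate 2, and Q111 against Q20 was -0.59 without Q111 replicate 2 and -0.43 without Q20 replicate 1.

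Tsn did not follow repeat length in either cell type. In mESC it was highest in Q50, with 202 and 221 CPM, followed by the libraries labelled KO with 169 and 213 CPM and WT with 151 and 165 CPM. It was at 112 and 122 CPM in Q20, 92.1 and 130.3 CPM in Q92 and 97.4 and 99.7 CPM in Q111. The Q50 libraries were above both libraries of every other knock-in line, and the WT libraries were above all 6 libraries of Q20, Q92 and Q111. Neighbours in the order of the means overlapped except KO with WT and WT with Q20. The replicates of Tsn in mESC were at most 1.41-fold apart.

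The tests of Tsn in mESC made no call in limma without a replicate block. Q50 was 0.84 above Q20 on the log2 scale, with a standard error of 0.21, an unadjusted p of 0.00281 and an adjusted p of 0.451. This difference was present within each replicate number, from 112 to 202 CPM in replicate 1 and from 122 to 221 CPM in replicate 2. Q20 against WT had a log2 difference of -0.43 with a standard error of 0.21 and an adjusted p of 0.456 in limma. KO was 0.26 above WT (adjusted p = 1.00), while Q92 and Q111 differed from Q20 by -0.10 and -0.25 on the log2 scale (adjusted p = 1.00 and 0.999). The slope was -0.51 over 91 repeats, with a standard error of 0.36 and an adjusted p of 1.00.

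In NPC, Tsn was again highest in Q50 and low in Q20 and Q92. It was at 199 and 252 CPM in Q50 and at 168 and 205 CPM in WT. It was at 95.8 and 117 CPM in Q20, 93.2 and 101 CPM in Q92, and 158 and 128 CPM in Q111. Both Q50 libraries were above all 6 libraries of the other knock-in lines, and both WT libraries were too. The KO libraries were at 114 and 255 CPM, a 2.24-fold gap that 8.03% of genes matched or exceeded. Their lower library was at the level of Q20 and their higher one just above Q50. In the order Q50, WT, KO, Q111, Q20 and Q92, the libraries of Q111 and Q20 alone did not overlap among neighbours.

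Tsn in Q50 NPC was 1.07 above Q20 on the log2 scale, with a standard error of 0.33 and an adjusted p of 0.0588 in limma, where 18.8% of genes were called. The adjusted p was 0.0184 in limma when only the 4 libraries of these lines were fitted, where 29.7% of genes were called. Markers of other cells moved with this comparison. Fibroblast marker sums were higher in Q50 than in Q20, with 7 of 8 markers above 1 CPM in both lines and Twist2 below it. These sums were 35.5 and 27.4 CPM in WT. Pluripotency markers summed to 108 and 106 CPM in Q20, above every other NPC library, and to 4.72 and 6.01 CPM in Q50. Of these 8 markers 5 were measured in NPC, and in Q20 only 3 were above 1 CPM. Dppa5a, Esrrb, Sox2, Tdgf1 and Zfp42 were below it or not measured. Neural progenitor markers summed to 3943 and 4154 CPM in Q20 and to 9176 and 9365 CPM in Q50, while the astrocyte sums were higher in Q20. The part of these cells in the Tsn level was not tested. Q20 was -0.80 relative to WT (adjusted p = 0.171 in limma; 14.5% of genes called). Q92 was -0.12 relative to Q20 (adjusted p = 0.811; 25.8% called) and Q111 0.42 (adjusted p = 0.364; 28.3% called). KO was -0.12 relative to WT with a standard error of 0.33 and an adjusted p of 0.931 in limma, 0.46 without KO replicate 1, 0.022 without WT replicate 2 and -0.70 without KO replicate 2.

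The slope of Tsn over 91 repeats in NPC was -0.08 on the log2 scale, with a standard error of 0.44 and an adjusted p of 0.917 in limma, where 22% of genes were called. It was positive, at most 0.093, without any 1 of the Q50 or Q92 libraries. In mESC it was -0.51. The difference of these slopes, tested as an interaction of cell type and repeat length, was 0.43 with a standard error of 0.60 and an adjusted p of 0.738 in limma, where 4.86% of 12321 genes were called. Thus neither the slopes of Tsn nor their difference passed the threshold.

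The balance of the transcripts was compared per kilobase of exon, since the exons of Tsn cover 9046 bases and those of Tsnax 3917. In Q20 and Q50 of NPC, Tsnax was below Tsn, at a ratio of 0.400 to 0.547 in Q20 and 0.548 to 0.635 in Q50. In Q92 it was 2.92 to 3.26 and in Q111 2.60 to 3.37, so that Tsnax exceeded Tsn in all 4 libraries. The KO libraries lay between, at 1.22 and 1.65, although both genes differed strongly between them. In KO replicate 2 of NPC, Tsnax and Tsn were both higher than in replicate 1, whereas the WT ratio went from 0.430 to 1.55. In mESC the ratio was 0.645 to 0.680 in WT, 0.656 to 0.668 in the libraries labelled KO and 0.514 to 0.542 in Q50. It reached 1.10 and 2.07 in Q20, 0.690 and 1.35 in Q92 and 1.20 and 3.01 in Q111. The NPC ratios of the knock-in lines rest on the Tsnax values that chose the gene.

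**Figure D3:**
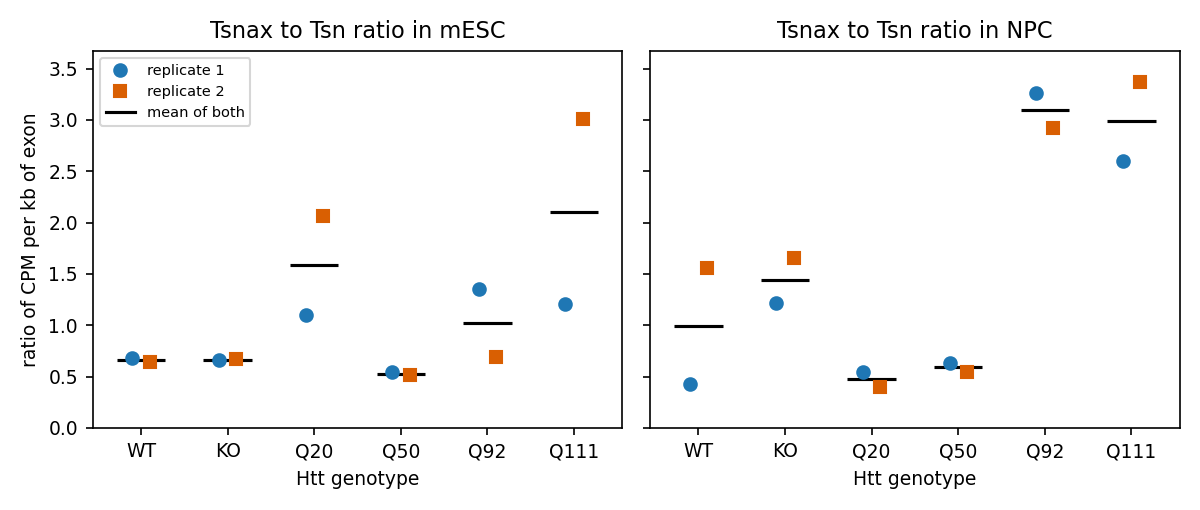
Ratio of Tsnax to Tsn, each as CPM per kilobase of exon, in every library of mESC (left) and NPC (right); circles are replicate 1, squares replicate 2 and bars the mean of both. In NPC the ratio is between 0.400 and 0.635 in Q20 and Q50 and between 2.60 and 3.37 in Q92 and Q111; in mESC WT, KO and Q50 lie between 0.514 and 0.680.

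Over the 6 line means in mESC, Pearson's r of the log2 levels of Tsn and Tsnax was -0.567 (two-sided exact permutation p = 0.260, adjusted p = 0.260) and Spearman's rho -0.371 (exact permutation p = 0.497, adjusted p = 0.497). Without the 2 lines farthest from the median of Tsn, KO and Q50, r was -0.611. In NPC the relation is given as a description with no test, because the Tsnax levels of the knock-in lines chose the gene: r was 0.0429 and rho -0.314. Without Q20 and Q92, r in NPC was -0.951 over the 4 lines that remained, so the value near 0 rested on those 2 lines. A relation added after the values were seen set Tsn in mESC against Tsn in NPC: r was 0.816 (exact permutation p = 0.0639, adjusted p = 0.128) and rho 0.771 (exact permutation p = 0.103, adjusted p = 0.206). Without KO and Q50 that r was 0.619. The p-values were adjusted over the 2 relations tested. For Tsnax, r between the cell types was -0.113 over the same 6 lines, given without a test.

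The genes whose NPC pattern was most like that of Tsnax were Mbd3, Cdk2 and Iqgap3, with r of 0.984, 0.980 and 0.980 over 12 libraries among 10565 genes on the log2 scale. Mbd3 is a subunit of the NuRD chromatin-remodelling complex, Cdk2 is a kinase of the cell cycle, and Iqgap3 is a scaffold protein found in dividing cells. Like Tsnax, they were low in replicate 1 of WT and KO and high in replicate 2: Cdk2 went from 56.5 to 144 CPM in WT and from 83.9 to 166 CPM in KO. Their range was narrower than that of Tsnax, which was chosen for its spread over the knock-in lines. Mbd3 was at 43.9 and 43.5 CPM in Q20 and at 118 and 105 CPM in Q111, and Iqgap3 at 38.1 and 36.5 CPM in Q20 and at 114 and 109.8 CPM in Q111. These genes were picked by the likeness itself, and the libraries share lines, so r is a description.

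**Figure D4:**
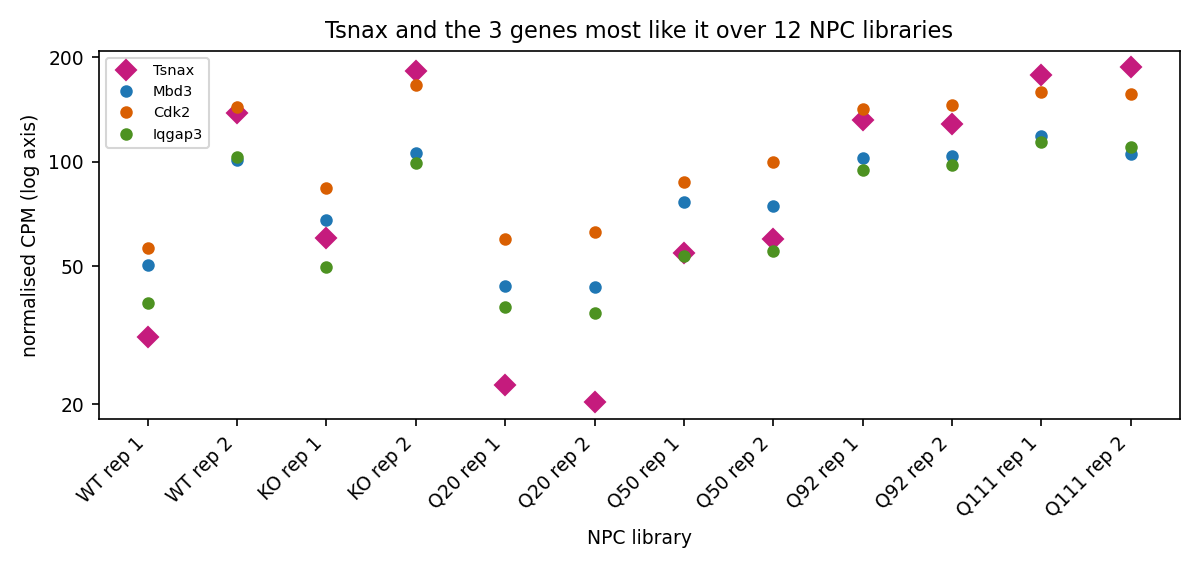
Normalised CPM on a log axis of Tsnax (diamonds) and of Mbd3, Cdk2 and Iqgap3 (circles) in the 12 NPC libraries. All 4 genes are lowest in the Q20 libraries or WT replicate 1 and high in WT replicate 2, KO replicate 2, Q92 and Q111; Tsnax runs from 20.3 to 187 CPM.

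In mESC, Tsnax was most like Snapc2, Heatr6 and Lrch4, with r of 0.878, 0.860 and 0.860 over 12 libraries among 10442 genes. Snapc2 encodes a subunit of the complex that starts transcription of small nuclear RNAs. These genes shared the high libraries of Tsnax, replicate 2 of Q20 and Q111. Snapc2 was at 36.9 and 39.6 CPM in them and between 11.3 and 19.6 CPM in the other 10, and Lrch4 at 14.0 and 30.8 CPM against at most 6.57 CPM. Tsn was most like Shc1, Usp21 and Lamc1 in mESC, with r of 0.929, 0.927 and 0.907, and most like Lysmd3, Cops5 and Pam in NPC, with r of 0.944, 0.928 and 0.908. Lysmd3 was at 22.8 and 23.3 CPM in Q50 of NPC and at 6.96 and 7.15 CPM in Q20, and it shared the gap between the KO libraries, with 7.10 and 24.2 CPM. No gene appeared among the 3 most like a member in both cell types.

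Genes that work with the complex were taken from 4 lists. Of 16 genes of the RNA interference machinery, which process small RNAs and load them onto Argonaute proteins, 6 rose over the NPC repeat series, none fell and 10 did not pass the test; 22% of all genes were called, 12% upward and 10.1% downward. The median slope of the 16 was 0.24 on the log2 scale, beside 0.04 over all genes tested. Those with the smallest p were Tnrc6a, a scaffold of microRNA silencing (slope 0.73, adjusted p = 0.0131), Snd1, a nuclease of the silencing complex (0.65, adjusted p = 0.0166), and Hsp90aa1, a chaperone that helps to load Argonaute (0.66, adjusted p = 0.0228). Ago2, the Argonaute whose passenger strand the complex cuts, was at 115 and 122 CPM in Q20 and 131 and 141 CPM in Q111 (slope 0.21, adjusted p = 0.518). Ago2 and Dicer1 are named here as the best known partners, outside the rule for named genes; Dicer1 had a slope of 0.27 (adjusted p = 0.294). The 6 calls fell to 2 without either Q111 library, to 1 without Q20 replicate 2 and to 0 without Q20 replicate 1 or with 1 mean per line. Of all genes, 12.8% and 12.6% were called without a Q111 library, 11% without Q20 replicate 2, 9.19% without Q20 replicate 1 and 0% with 1 mean per line.

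Of 17 tested genes of transfer RNA end processing, 6 rose over the NPC repeat series, none fell and 11 did not pass the test, beside 12% of all genes called upward. Their median slope was 0.47, against 0.04 over all genes. Pop1, a protein of the ribonuclease that removes the leaders of transfer RNA precursors, was at 32.2 and 38.0 CPM in Q20 and 70.3 and 69.7 CPM in Q111 (slope 1.06, adjusted p = 0.0134 in limma). Rpp30, a subunit of the same enzyme, had a slope of 0.78 (adjusted p = 0.0153), and Ssb, the La protein that guards the ends of such precursors, 0.64 (adjusted p = 0.0178). The count was 3 without either Q111 library or without Q20 replicate 2, 1 without Q20 replicate 1, and 0 with 1 mean per line.

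Among 10 tested genes for proteins reported to bind translin or trax, 1 rose over the NPC repeats, none fell and 9 did not pass, with a median slope of 0.22, beside the same 12% and 0.04 over all genes. Atm, the kinase that answers DNA breaks, was at 86.7 and 101 CPM in Q20, 165 and 150.1 CPM in Q50, 249 and 229 CPM in Q92 and 196 and 204 CPM in Q111 (slope 1.17, standard error 0.22, adjusted p = 0.00955 in limma). Like Tsnax, it was lower in replicate 1 than in replicate 2 of WT, at 108 and 194 CPM, and of KO, at 140.0 and 228 CPM. With 1 mean per line Atm was not called. Of the 5 messenger RNAs reported to bind translin, 2 were tested. Bdnf, a growth factor of neurons, had a slope of 1.11 (adjusted p = 0.119) and Camk2a, a kinase of synapses, a slope of -0.06 (adjusted p = 0.937).

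None of the 45 tested genes of these lists was called for KO against WT in NPC by limma or edgeR, where 4 had an unadjusted limma p under 0.05. Camk2a was at 3.99 and 1.47 CPM in WT and 0.414 and 0.379 CPM in KO (log2 difference -1.33, adjusted p = 0.0988). Without WT replicate 2, limma called 7 genes of the lists, beside 11.9% of all genes. In mESC none was called by either tool for KO against WT or for the slope, with 0 and 1 genes at an unadjusted limma p under 0.05.

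Among the NPC comparisons between lines that were run, Q50 against Q20 had the largest log2 difference of Tsn. There, 2 of the 45 tested list genes were called higher and 2 lower, beside 8.05% of all genes higher and 10.7% lower. They were 3 of the 10 binding-partner genes, 2 higher and 1 lower, and 1 of the 16 RNA interference genes (Tnrc6c). None of the 17 genes of transfer RNA end processing or the 2 messenger RNAs reported to bind translin was called. Adora2a, an adenosine receptor, was at 0.721 and 0.236 CPM in Q20 and 2.24 and 1.95 CPM in Q50 (log2 change 1.09, adjusted p = 0.00441 in limma), and Disc1, a scaffold protein of neuronal development, rose by 1.23 (adjusted p = 0.0233). Plcb1, a phospholipase that binds the complex, fell by 1.03 (adjusted p = 0.0357). Tnrc6c, a scaffold of microRNA silencing, fell by 0.45 (adjusted p = 0.0323). Fewer of these genes were called when 1 of the 4 libraries was left out, and Tnrc6c was not among those called. Fewer of all genes were called as well.

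Position was a feature that the choice of genes did not use. Within 1 Mb of Tsnax, 19 genes were tested in NPC, of which 2 rose over the repeat series, 3 fell and 14 did not pass the test, beside 12% of all genes called upward and 10.1% downward. The slopes of the nearest neighbours were not called: Disc1, 20.0 kb away, had a slope of 0.64 (adjusted p = 0.301), Egln1, an oxygen-sensing hydroxylase 63.7 kb away, 0.87 (adjusted p = 0.305), Sprtn, a protease of DNA repair, 0.53 (adjusted p = 0.382) and Sipa1l2 -0.51 (adjusted p = 0.216). The called rises were the slopes of Urb2 (0.91, adjusted p = 0.0348 in limma) and Ttc13 (0.62, adjusted p = 0.0445). With 1 library left out, the number of called neighbours was no higher, and fewer of all genes were called as well. With 1 mean per line, 0 neighbours and 0 of all genes were called. Those that fell were Agt, the angiotensin precursor (slope -5.40, adjusted p = 0.00882), Kcnk1, a potassium channel (-2.39, adjusted p = 0.00493) and Trim67 (-1.42, adjusted p = 0.0116). Agt was at 137 and 75.7 CPM in Q20, 13.0 and 10.3 CPM in Q50, 0.0826 and 0.297 CPM in Q92, and 3.47 and 2.37 CPM in Q111. In Q50 against Q20, examined after the values had been seen, 4 of the 19 were called in limma, beside the 8.05% of all genes higher and 10.7% lower. Disc1 (log2 change 1.23, adjusted p = 0.0233), Egln1 (1.55, adjusted p = 0.0407) and Ttc13 (0.50, adjusted p = 0.0427) rose, and Agt fell by 3.03 (adjusted p = 0.0156). When 1 of the 4 libraries was left out, fewer neighbours and fewer of all genes were called.

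For KO against WT in NPC, 1.42% of all genes were called, and 0 when only the libraries of these groups were fitted. Of the 19 neighbours of Tsnax, 1 rose, Ttc13 (log2 change 0.76, adjusted p = 0.0482 in limma). Ttc13 was at 64.4 and 85.3 CPM in WT and 131 and 122 CPM in KO. That call was lost under 8 of the alternatives, and 10 neighbours were called without WT replicate 2, beside 11.9% of all genes. In mESC, none of the 20 tested neighbours was called for KO against WT or the slope by limma or edgeR, with 1 and 0 at an unadjusted limma p under 0.05.

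Few of the measured genes lie within 1 Mb of Tsn. Those tested lie on its higher-coordinate side: Nifk at 10.1 kb, Clasp1 at 77.3 kb, Tfcp2l1 at 316 kb and Gli2 at 522 kb. The comparison of Q50 with Q20 was examined for them after the Tsn values had been seen. Of the 3 tested in NPC, 2 were called higher and 0 lower, beside 8.05% of all genes higher and 10.7% lower. In NPC, Clasp1, which stabilises microtubules, was at 155 and 157 CPM in Q20 and 253 and 290.0 CPM in Q50 (log2 change 0.79, adjusted p = 0.00215 in limma). Gli2, a transcription factor of Hedgehog signalling, was at 4.49 and 3.31 CPM in Q20 and 8.88 and 7.85 CPM in Q50 (log2 change 0.94, adjusted p = 0.0430). Nifk did not pass the test (0.34, adjusted p = 0.580). In mESC all 4 were above Q20 in the mean and none was called in limma or edgeR without a replicate block: the log2 differences were 1.65 for Gli2 (adjusted p = 0.384), 1.16 for Tfcp2l1 (adjusted p = 0.830), 0.56 for Clasp1 (adjusted p = 0.791) and 0.43 for Nifk (adjusted p = 0.999), with Gli2 alone at an unadjusted p under 0.05. Fewer neighbours were called when 1 of the 4 NPC libraries was left out, and fewer of all genes were called as well. For KO against WT and the slope, no neighbour of Tsn was called in either cell type by limma or edgeR, and only KO against WT in mESC had any, 2, at an unadjusted limma p under 0.05.

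**Figure D5:**
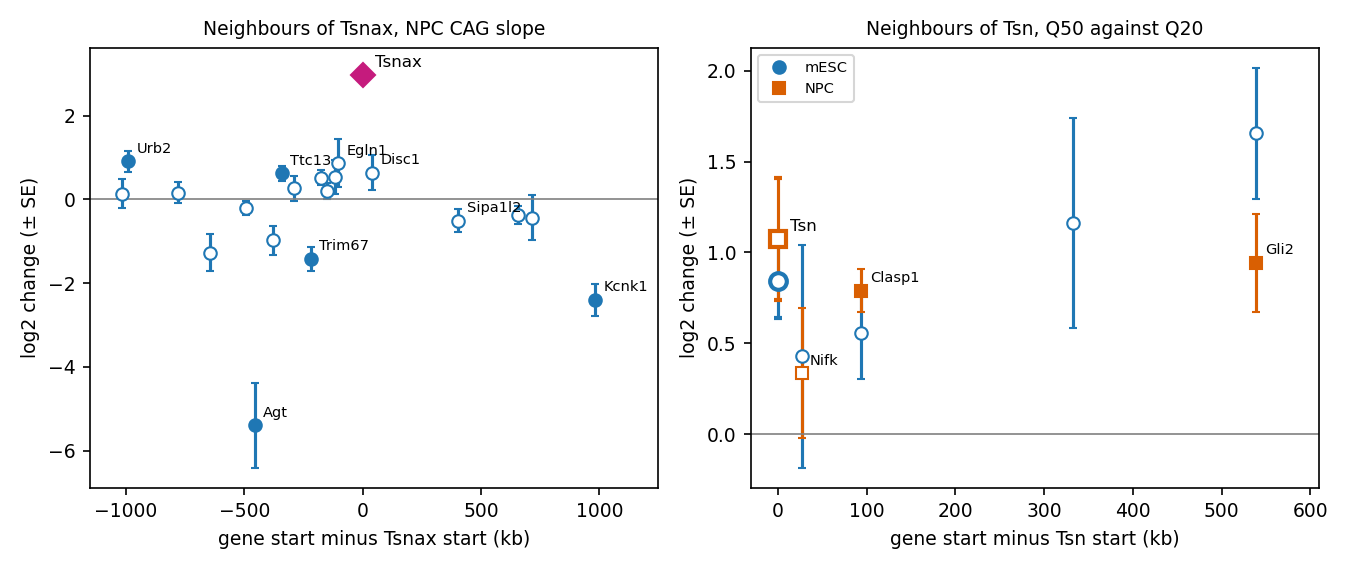
Log2 change with its standard error of the tested genes within 1 Mb of Tsnax and of Tsn, by the distance between gene starts. The left panel gives the NPC repeat slope around Tsnax. The right panel gives Q50 against Q20 around Tsn, in mESC (circles) and NPC (squares). Filled symbols of neighbours were called. The large diamond is Tsnax, which was not tested, and the large open symbols are Tsn. The neighbours of Tsnax lie between -5.40 and 0.91, and Tsnax, which was chosen for its slope, lies at 2.97. All tested neighbours of Tsn lie above 0.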

How the data were processed

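RNA sequencing gave 2 tables of gene values, 1 per cell type, for 24 libraries in 12 groups. The deposited values are a normalised signal that the authors named CPM. Column totals ran from 900342 to 1080734, and the values matched CPM scaled with TMM factors to within 4.73e-08. Per the submitters' processing notes, CASAVA 1.8 and STAR were used, with build GRCm38.p6; how reads were assigned to genes is not given in the sources used here. All values (100%, tolerance 0.01) were whole multiples of the value of 1 read, which gave back the reads behind them. A count test on these reads called 107 genes for KO against WT in NPC, 2731 for the NPC slope and 2101 for Q50 against Q20 in NPC. Every column was mapped to a sample or its group.

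Genes with at least 1 CPM in at least 2 libraries were tested, 13916 in mESC and 13206 in NPC, both members included. Tests used limma 3.58.1 in R 4.3.3 on log2(CPM + 1) (variance trend, two-sided, Benjamini-Hochberg adjusted over all tested genes, called under 0.05), and this scale understates changes of low genes. Pairs of groups used all 12 libraries of a cell type, and slopes the 8 knock-in libraries, scaled to 91 repeats. Comparisons with Q20 share its libraries, and those with WT share theirs. The scripts were tested on simulated data. Alternatives were a pseudocount of 0.1, other filters, median-of-ratios scaling, edgeR 4.0.16, a replicate block, 89 repeats, 1 mean per line, fewer groups and leaving out each library. Positions came from GENCODE M21, where 99.6% of the genes in the mESC table and 99.8% in the NPC table were found.

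The members and lists were chosen with earlier results of these data known. The named genes were the members, the 3 genes most like each by Pearson's r in each cell type, called list genes (or the 3 with the smallest p where over 5 were called), the 2 nearest tested neighbours per side and called ones, and Htt. The NPC correlation of Tsn with Tsnax, planned as a test, is given as a description.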

Additional observations from a re-analysis of the deposited data

How the results depend on the processing

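The 23 results on Tsn and Tsnax were recomputed under 281 alternatives: 257 kept their direction and side of the threshold, 18 reversed in 7 results, 4 passed the threshold only there, and 2 described values moved. Tsn in Q50 against Q20 passed in limma with a replicate block in mESC (0.84, adjusted p = 0.0415) and in NPC (1.07, adjusted p = 0.0416). In NPC it also passed with edgeR and the block together (1.08, adjusted p = 0.0472, added after seeing the data). It passed there too in limma when the fit held no other groups (1.07, adjusted p = 0.0184), where 29.7% of genes were called. Over its alternatives the adjusted p ran from 0.0415 to 0.997 for mESC and from 0.0184 to 0.253 for NPC. The Tsnax slope in mESC was 0.03 in edgeR (0.0345) and in edgeR with the block (0.0298). The cause of these shifts was not tested.

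The replicate number is shared by the labels alone, with 2 numbers and no stated batch. Replicate differences correlated between genotypes in mESC, with r of 0.250 to 0.547 over 15 pairs of groups, and in NPC with r of -0.0495 to 0.467, of which 3 were over 0.1. The block moved the genes called for Q50 against Q20 in mESC from 1 to 137, for Q20 against WT in mESC from 45 to 1475, and for the NPC slope from 2909 to 2015. It changed no other call of Tsn or Tsnax; with edgeR and the block, Tsn in Q50 against Q20 in mESC was 0.84 (adjusted p = 0.0510). With the block, 1 neighbour of Tsn was called in that mESC comparison in limma and in edgeR. Against limma's 188 genes for KO against WT in NPC, edgeR called 107, and limma called 0 when only the libraries of these groups were fitted.

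Leaving out each library in turn gave log2 values of -0.34 to 0.15 for Tsn in Q92 against Q20 in mESC, -0.26 to 0.021 for the same pair in NPC, -0.59 to 0.75 for Tsnax in Q111 against Q20 in mESC, and -0.64 to 0.52 for the Tsnax slope in mESC. For KO against WT in NPC they gave -0.70 to 0.46 for Tsn and -0.39 to 1.72 for Tsnax, for the NPC slope of Tsn -0.43 to 0.093, and for the described NPC slope of Tsnax 2.81 to 3.05. None of these tested values was called. Of 492 recomputed counts over lists and neighbours, 430 stayed within 1.5 times and 62 did not.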

Other observations

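Limits bear on all of these values. With 2 libraries a group, and repeat length differing only between 4 lines per cell type, a line's own history and its repeat length cannot be told apart. Tsnax differed up to 4.41-fold between libraries of 1 genotype in NPC, and the labels separate those libraries only by replicate number. The deposited tables were scaled separately, so levels were not compared between mESC and NPC. Proteins, splice forms and the activity of the complex were not analysed here.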
